A study of Mus musculus with 12 samples.

Results

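Ceramide and sphingolipid enzymes are described here by 10 genes: *Sptlc1*, *Sptlc2*, *Kdsr*, *Cers2*, *Cers4*, *Cers5*, *Cers6*, *Degs1*, *Sgms1* and *Smpd3*. The members were chosen by gene symbol. All 10 were found among the 24532 genes of the deposited table, and all 10 passed the filter on low counts, which kept 14038 genes. RNA-seq was done on 12 livers of male C57BL/6 mice, 3 in each of 4 groups. In the *Ahr* HKO mice exon 2 of *Ahr*, which is flanked by loxP sites, is removed by a Cre under the albumin promoter, so the deletion is directed to hepatocytes. Whether other liver cells keep the gene was not checked here. The WT mice were *Ahr* fl/fl littermates without Cre, and both genotypes therefore carried the floxed allele. Mice began at 10 to 12 weeks of age and received either a Lieber-DeCarli diet with ethanol at 5% of the volume and 36% of the calories (EtOH) or a control liquid diet of equal calories (con), in both cases for 5 weeks. The groups are called WT-con, WT-EtOH, HKO-con and HKO-EtOH.

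Ceramides are built in the endoplasmic reticulum from serine and palmitoyl-CoA by serine palmitoyltransferase, a ketoreductase, a ceramide synthase that adds an acyl chain, and a desaturase that inserts the double bond of the sphingoid base. Ceramide synthases differ in the acyl chains they prefer: CERS2 uses very long chains and CERS5 and CERS6 use palmitoyl chains, and C16 ceramide has been studied for its part in fatty liver and insulin resistance. Ceramide is then turned into sphingomyelin or glycosphingolipids, or cleaved by ceramidases to sphingosine, and sphingomyelinases return sphingomyelin to ceramide. AHR is a ligand-activated transcription factor that binds, with ARNT, to DNA elements with the core GCGTG.

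Libraries held between 46306518 and 74336255 reads counted on genes. The whole-gene count of *Ahr* does not separate exon 2, so it does not check the deletion. It was 18.3 ± 1.79 CPM in WT-con livers and 56.7 ± 13.4 CPM in livers labelled HKO-con (SD, n = 3), 3.10-fold higher, and directions below refer to the groups as labelled. *Cyp1a2*, a gene known to be induced by AHR, was lower in HKO than in WT livers on either diet, with a log2 FC of -1.67 ± 0.40 (SE) on the control diet (adjusted *P* = 0.0197) and of -0.73 ± 0.12 on ethanol (adjusted *P* = 0.0433). The call on the control diet was lost without WT-con liver 1 or HKO-con liver 2, with adjusted *P* values up to 0.0607, and that on ethanol was kept in 1 of 6 fits with a liver removed, the fit without WT-EtOH liver 3. *Cyp1a1*, another gene known to be induced by AHR, was low, with means of 0.256 CPM in WT-con and 0.723 CPM in HKO-con livers (10 to 16 and 26 to 55 counts). It was 2.84-fold higher in HKO than in WT livers on the control diet (log2 FC 1.51 ± 0.46, adjusted *P* = 0.0453; kept only in the fit without HKO-con liver 2 among 6 with a liver removed). On ethanol the log2 FC of *Cyp1a1* was -0.04 ± 0.30 (adjusted *P* = 0.956). The 8 hepatocyte markers summed to between 77500 and 120000 CPM and none was at 0 in every library. HKO-con livers 1 and 2 stood apart in the sum of 6 cholangiocyte markers, with 476 and 180.0 CPM against 37.1 to 132 CPM in the other livers, HKO-con liver 3 included. HKO-con liver 3 stood apart in *Cers6* and *Sgms1*, and the values of these genes are given with and without it.

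The upstream sequences of *Cers6* and *Sptlc2* are shown because these genes had the largest log2 FCs among those called. Each line gives the 250 bases before a RefSeq start site in the build GRCm38.p6, 5′ to 3′ on the strand of the gene, with each copy of the letters GCGTG, or of CACGC, which is the same core on the other strand, in capitals. The first lies at chr2:68861191-68861440 on the plus strand and the second at chr12:87388356-87388605 on the minus strand, and no base of either is in a GENCODE vM21 exon of its gene. The *Cers6* window lies within the RefSeq span of the gene, which begins at 68861145, so it precedes this start site but not the whole gene. The *Sptlc2* window lies outside the span of its gene, which ends at 87388355.
Cers6: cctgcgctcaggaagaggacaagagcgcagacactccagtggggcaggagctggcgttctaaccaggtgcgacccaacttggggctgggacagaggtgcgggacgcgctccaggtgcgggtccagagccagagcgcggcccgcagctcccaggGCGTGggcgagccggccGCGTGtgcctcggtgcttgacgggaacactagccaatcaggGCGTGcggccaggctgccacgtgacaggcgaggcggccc
Sptlc2: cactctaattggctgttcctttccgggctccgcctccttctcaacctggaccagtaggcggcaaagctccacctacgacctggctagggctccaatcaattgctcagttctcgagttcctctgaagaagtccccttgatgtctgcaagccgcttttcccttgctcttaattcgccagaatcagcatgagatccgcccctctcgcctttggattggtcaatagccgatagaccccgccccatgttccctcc
The *Cers6* window held 3 copies of the core, whose first bases lay 97, 80 and 39 bases before the start site, and the *Sptlc2* window held none. Among 32851 windows of this length at RefSeq start sites, 28.2% held the core at least once and 2.77% held it 3 or more times. RefSeq windows were found for 9 of the 10 genes, with 13 start sites, of which 8 held the core. The *Degs1* window held 1 copy, 82 bases before the start site. The window of *Cers5*, whose level passed no test, held 4, and so did a window of *Sgms1*, which was called for ethanol in WT. The share over all windows was not matched for GC content, which was 45.6 to 76.0% in the 13 windows. The matches are letters only and were not tested for binding.

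The levels of the 10 genes per length, as the mean FPKM of the 12 livers, spanned from 124 for *Cers2* to 0.763 for *Cers4*. *Cers2* was followed by *Degs1* with 28.0 and by *Sptlc1* with 8.87 FPKM. *Cers6*, *Sgms1*, *Kdsr* and *Sptlc2* lay close together, between 4.07 and 4.93 FPKM, and their ranges over the livers overlapped. *Cers5*, *Smpd3* and *Cers4* lay between 0.763 and 0.951 FPKM, also with overlapping ranges. Levels below are in CPM, the counts of a gene per 1000000 counts of a library total scaled by TMM factors, and are compared only between livers for the same gene.

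**Figure D1:**
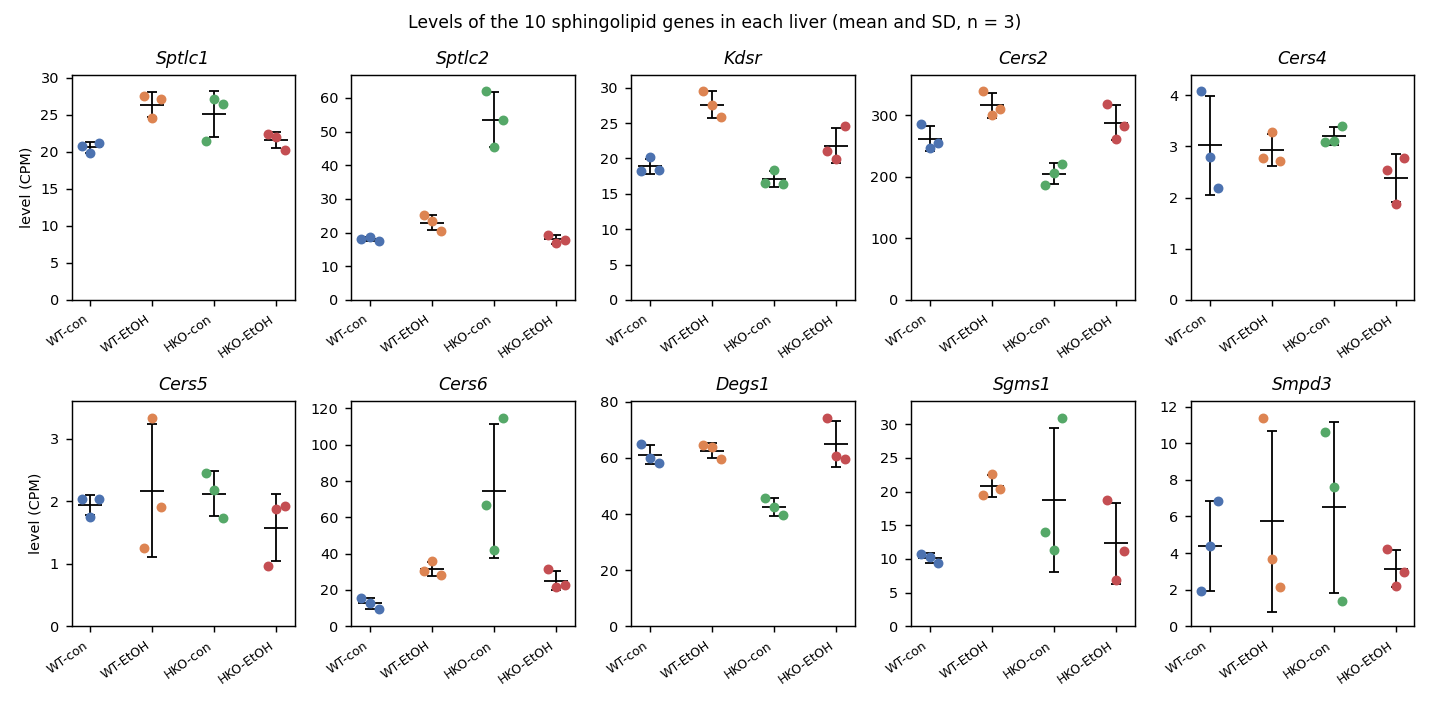
Level of each of the 10 genes in CPM (vertical axis, from 0) in the 4 groups; each point is a liver, and the bar and whiskers are the mean and SD of 3 livers. *Sptlc2* and *Cers6* are highest in the HKO-con livers, and *Degs1* is lowest there.

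Ethanol against the control diet was compared first within WT mice, where *Ahr* is intact. Of the 10 genes, 4 rose and none fell by edgeR's quasi-likelihood test with a Benjamini-Hochberg adjusted *P* value under 0.05, in a comparison that called 9.47% of all tested genes in either direction. The genes that rose were *Cers6*, *Sgms1*, *Kdsr* and *Sptlc1*, and the median log2 FC of the 10 genes was 0.364, against 0.0269 for all tested genes. Without WT-con liver 1, 2 or 3 the count was 2 in each case.

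On the control diet, HKO livers were then compared with WT livers. *Sptlc2* and *Cers6* were higher and *Degs1* was lower in HKO, 3 of the 10 genes, against 29.6% of all tested genes. A count of 3 in 10 is close to that background. The median log2 FC was 0.211 for the 10 genes and -0.000949 for all tested genes.

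Between the genotypes on the ethanol diet none of the 10 genes was called by edgeR's quasi-likelihood test, where 1.10% of all tested genes were. At an unadjusted *P* value under 0.05, edgeR gave 4 of the 10, *Sptlc1*, *Sptlc2*, *Kdsr* and *Sgms1*. DESeq2 called 0 at an adjusted *P* value under 0.05, where it called 10.8% of all tested genes. With limma on quantile-normalized log2(FPKM + 1), 0 were called, where 0.655% of all tested genes were. Without quantile normalization, limma on log2(FPKM + 1) called *Sptlc1* (log2 FC -0.46, adjusted *P* = 0.0469), where it called 2.72% of all tested genes. The log2 FC was above 0 for 1 of the 10 genes, with a median of -0.336 against -0.00761 for all tested genes.

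In HKO mice, ethanol lowered *Sptlc2* and *Cers6* and raised *Degs1*, *Cers2* and *Kdsr*, 5 of the 10 genes, against 30.8% of all tested genes. The median was -0.426 for the 10 genes and -0.017 for all tested genes. The count was 3 without HKO-con liver 1 or 2 and without HKO-EtOH liver 1 or 2, and 2 without HKO-EtOH liver 3. The effect of ethanol differed between the genotypes for 5 of the 10 genes, *Sptlc1*, *Sptlc2*, *Cers6*, *Degs1* and *Sgms1*, by the interaction of genotype and diet, which called 22.3% of all tested genes. For *Degs1* the effect of ethanol was more positive in HKO than in WT and for the other 4 it was more negative. The comparisons share groups: the HKO-con livers enter the genotype comparison on the control diet, the ethanol comparison in HKO and the interaction.

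**Figure D2:**
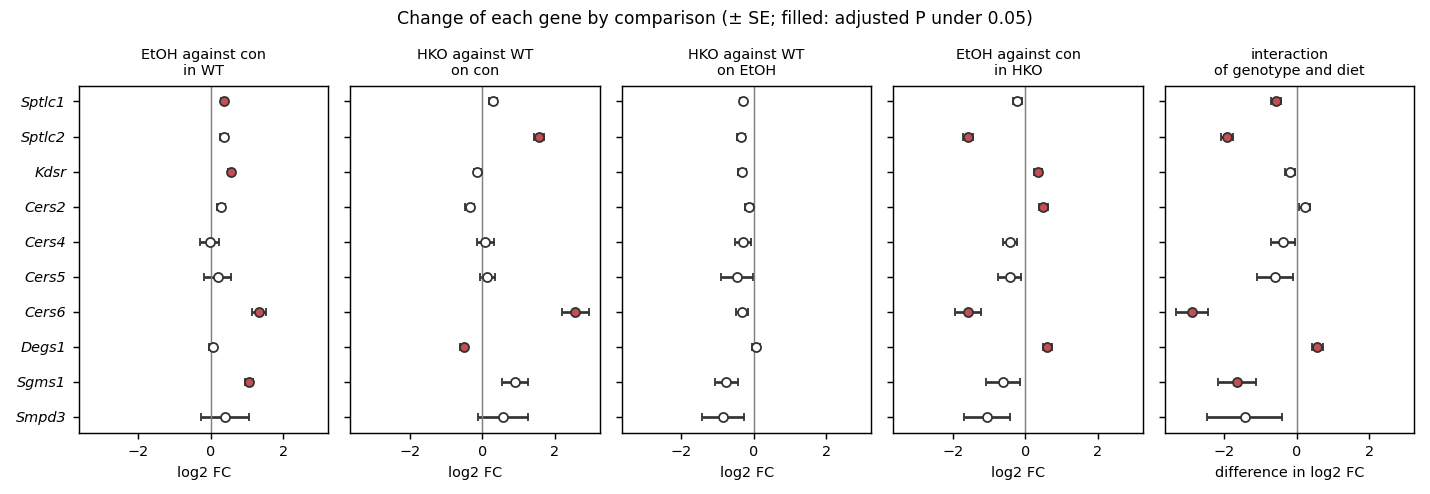
log2 FC of each gene (horizontal axis; in the last panel the difference in the log2 FC of ethanol between HKO and WT) with its SE, in the 5 comparisons; filled points have an adjusted *P* value under 0.05. *Cers6* and *Sptlc2* lie to the right of 0 between the genotypes on the control diet and to the left of 0 for ethanol in HKO.

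*Sptlc1* and *Sptlc2* encode the large subunits of serine palmitoyltransferase, which catalyzes the first and rate-limiting step of sphingolipid synthesis. *Sptlc2* (chromosome 12, 87305058 to 87388355) was at 18.2, 18.8 and 17.5 CPM in the WT-con livers and at 25.1, 23.6 and 20.5 CPM in the WT-EtOH livers. In the HKO-con livers it was at 62.0, 45.4 and 53.4 CPM, and in the HKO-EtOH livers at 19.3, 16.9 and 17.7 CPM. Every HKO-con liver lay above every liver of the other groups, and HKO-EtOH overlapped only with WT-con. On the control diet *Sptlc2* was 2.96-fold higher in HKO than in WT (log2 FC 1.57 ± 0.13 (SE), adjusted *P* = 0.000876). In HKO livers ethanol lowered it 2.98-fold, with a log2 FC of -1.58 ± 0.14 (adjusted *P* = 0.00147). The interaction was -1.92 ± 0.17 (adjusted *P* = 0.000158). All 3 differences kept an adjusted *P* value under 0.05 with any liver removed and in every other setting. Without HKO-con liver 1, which had the highest level, they were 1.45, -1.46 and -1.81. The WT-EtOH livers lay above the WT-con livers without overlap, but the log2 FC of 0.36 ± 0.10 did not pass (adjusted *P* = 0.0787).

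*Sptlc1* (chromosome 13, 53332748 to 53377417) varied less. It was at 20.8, 19.8 and 21.2 CPM in the WT-con livers and at 27.5, 24.6 and 27.2 CPM in the WT-EtOH livers. The HKO-con livers had 21.5, 27.2 and 26.5 CPM and the HKO-EtOH livers 22.4, 22.0 and 20.3 CPM. The WT-EtOH livers all lay above the WT-con and HKO-EtOH livers. The rise by ethanol in WT was 1.29-fold (log2 FC 0.37 ± 0.09, adjusted *P* = 0.0403), and it was not called in any of 6 fits with a liver removed, where adjusted *P* ranged from 0.0621 to 0.138, and was called in 5 of 9 other settings. The interaction of -0.58 ± 0.14 (adjusted *P* = 0.0153) was called in all 12 such fits. As a share of the summed FPKM of both subunits, *Sptlc2* made up 25.3 ± 1.32% in WT-con, 25.0 ± 2.36% in WT-EtOH, 45.0 ± 6.84% in HKO-con and 24.2 ± 1.33% in HKO-EtOH livers (SD, n = 3).

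*Kdsr*, the reductase of the next step (chromosome 1, 106720410 to 106759742), was at 18.2, 20.2 and 18.4 CPM in the WT-con livers and at 29.5, 27.6 and 25.8 CPM in the WT-EtOH livers. It was at 16.6, 18.4 and 16.4 CPM in the HKO-con and at 21.0, 19.9 and 24.6 CPM in the HKO-EtOH livers. In both genotypes the ethanol livers lay above the control livers without overlap. Ethanol raised it 1.47-fold in WT (log2 FC 0.56 ± 0.09, adjusted *P* = 0.0163) and 1.28-fold in HKO (0.35 ± 0.11, adjusted *P* = 0.0483), and the interaction of -0.19 ± 0.14 did not pass (adjusted *P* = 0.356). The call in WT was lost without WT-con liver 1, 2 or 3, with adjusted *P* values up to 0.066, and the call in HKO was lost in all 6 fits with a liver removed, with adjusted *P* values of 0.0624 to 0.171. In 9 other settings the call in WT was kept in 5 and that in HKO in 3.

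*Cers6*, a ceramide synthase of palmitoyl chains (chromosome 2, 68861145 to 69114284), had the largest log2 FC of the 10 genes in the comparisons on the control diet and in WT, and the largest interaction. It was at 15.6, 12.9 and 9.57 CPM in the WT-con livers and at 30.7, 36 and 28.1 CPM in the WT-EtOH livers. In the HKO-con livers it was at 66.8, 42.2 and 115 CPM and in the HKO-EtOH livers at 31.3, 21.5 and 22.6 CPM. The HKO-con livers all lay above the other 9 livers and the WT-con livers below them, whereas the ranges of the ethanol groups overlapped. Ethanol raised *Cers6* 2.51-fold in WT (log2 FC 1.33 ± 0.19, adjusted *P* = 0.0108). On the control diet it was 5.90-fold higher in HKO than in WT (2.56 ± 0.37, adjusted *P* = 0.00345), and in HKO ethanol lowered it 2.98-fold (-1.57 ± 0.36, adjusted *P* = 0.017). The interaction was -2.88 ± 0.44 (adjusted *P* = 0.00175).

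HKO-con liver 3 had the highest level of *Cers6*. Without it the log2 FC between the genotypes on the control diet was 2.10 (adjusted *P* = 0.00399), that of ethanol in HKO was -1.11 (adjusted *P* = 0.0223) and the interaction was -2.43 (adjusted *P* = 0.0016), so each stayed past the threshold. The call of ethanol in HKO was lost without HKO-EtOH liver 2 or 3, with adjusted *P* values up to 0.0594. The genotypes on ethanol differed by -0.33 ± 0.17 (adjusted *P* = 0.305).

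*Cers2*, the synthase of very long chain ceramides and the most highly expressed in liver (chromosome 3, 95314771 to 95323599), moved within a narrow range. The WT-con livers had 285, 247 and 255 CPM and the WT-EtOH livers 339, 300.0 and 310.0 CPM. The HKO-con livers had 187, 207 and 221 CPM and the HKO-EtOH livers 319, 262 and 283 CPM. The HKO-con livers lay below all others. Ethanol raised *Cers2* 1.41-fold in HKO (log2 FC 0.49 ± 0.13, adjusted *P* = 0.0255), a call that was lost in 4 of 6 fits with a liver removed: those without HKO-con liver 1 or 2 and those without HKO-EtOH liver 1 or 3. It was kept in 6 of 9 other settings. In WT the log2 FC was 0.28 ± 0.10 (adjusted *P* = 0.131), and HKO differed from WT on the control diet by -0.35 ± 0.12 (adjusted *P* = 0.0566), which passed in 5 of 9 other settings, with adjusted *P* values from 0.0157 with DESeq2 to 0.0446 with limma on log2(FPKM + 1), and without HKO-con liver 3 (adjusted *P* = 0.0453). The span of *Cers2* overlaps those of *Setdb1* and *Anxa9*, and whether the counting used strand is not given in the sources used here.

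*Cers4* and *Cers5* encode further ceramide synthases and were low. *Cers4* (chromosome 8, 4492818 to 4529603) ranged from 1.87 to 4.08 CPM and *Cers5* (chromosome 15, 99735592 to 99772515) from 0.964 to 3.34 CPM over the 12 livers. Neither was called in any comparison, and every pair of groups overlapped except HKO-EtOH and HKO-con for *Cers4*, whose log2 FC of ethanol was -0.42 ± 0.20 (adjusted *P* = 0.147).

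Of the summed FPKM of *Cers1* to *Cers6*, *Cers2* made up 97.2 ± 0.358% in WT-con, 95.9 ± 0.889% in WT-EtOH, 88.8 ± 3.61% in HKO-con and 96.5 ± 0.0443% in HKO-EtOH livers (SD, n = 3). *Cers6* made up 1.58, 1.51 and 1.09% in the WT-con livers and 2.60, 3.39 and 2.60% in the WT-EtOH livers. Its share was 9.44, 5.63 and 13.2% in the HKO-con livers and 2.81, 2.36 and 2.29% in the HKO-EtOH livers. The HKO-con livers had the highest shares of *Cers6* and the lowest of *Cers2*, and the WT-con livers the lowest shares of *Cers6*. *Cers1* and *Cers3* had no count in any library.

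**Figure D3:**
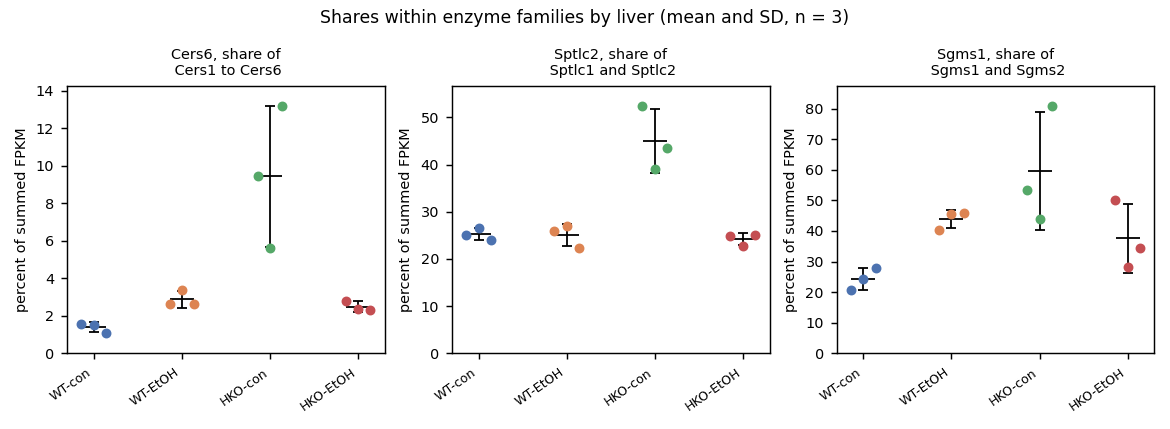
Shares of *Cers6*, *Sptlc2* and *Sgms1* in the summed FPKM of their enzyme families (vertical axes in percent, from 0) by group; points are livers, and the bar and whiskers are the mean and SD of 3 livers. The *Cers6* and *Sptlc2* shares of all 3 HKO-con livers lie above those of the other groups, and the *Sgms1* shares overlap between HKO-con and both ethanol groups.

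*Degs1* encodes the desaturase that turns dihydroceramide into ceramide (chromosome 1, 182275964 to 182282854). It was at 64.8, 60.0 and 58.3 CPM in the WT-con livers and at 64.5, 63.9 and 59.5 CPM in the WT-EtOH livers. It was at 45.9, 42.5 and 39.5 CPM in the HKO-con and at 74.4, 60.7 and 59.5 CPM in the HKO-EtOH livers. The HKO-con livers lay below all other livers, and HKO-EtOH liver 1 lay above all others. On the control diet *Degs1* was 1.43-fold lower in HKO than in WT (log2 FC -0.51 ± 0.10, adjusted *P* = 0.00781), and in HKO ethanol raised it 1.52-fold (0.61 ± 0.12, adjusted *P* = 0.0115). The interaction was 0.57 ± 0.14 (adjusted *P* = 0.0173). All 3 calls held with any liver removed. With limma on log2(FPKM + 1) the interaction was 0.31 and was not called (adjusted *P* = 0.169), and it was called in the other 7 of 8 settings. In WT the log2 FC of ethanol was 0.05 ± 0.09 (adjusted *P* = 0.762).

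*Sgms1* encodes the Golgi sphingomyelin synthase (chromosome 19, 32122727 to 32389885). The WT-con livers had 10.7, 10.3 and 9.34 CPM and the WT-EtOH livers 19.5, 22.6 and 20.4 CPM. The HKO-con livers had 14, 11.3 and 31.0 CPM and the HKO-EtOH livers 18.8, 6.94 and 11.2 CPM. In WT the diets did not overlap, whereas the HKO livers spread over a wide range on either diet. Ethanol raised *Sgms1* 2.08-fold in WT (log2 FC 1.06 ± 0.11, adjusted *P* = 0.00369), a call that was kept with any liver removed and was lost when all 12 libraries were fitted together (1.04, adjusted *P* = 0.104). In HKO the log2 FC was -0.61 ± 0.47 (adjusted *P* = 0.355), and -0.03 without HKO-con liver 3. The interaction of -1.65 ± 0.54 (adjusted *P* = 0.0467) was called in 3 of 12 fits with a liver removed and in 4 of 8 other settings. Without HKO-con liver 3 it was -1.08 (adjusted *P* = 0.0902). On the control diet the HKO livers lay above the WT livers, with a log2 FC of 0.90 ± 0.36 (adjusted *P* = 0.0991), and without HKO-con liver 3 this was 0.32. The difference was called in 1 of 9 other settings, DESeq2 (adjusted *P* = 0.0325). It was called in 1 of 6 fits with a liver removed, that without HKO-con liver 2 (1.16, adjusted *P* = 0.0416).

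*Smpd3*, a neutral sphingomyelinase (chromosome 8, 106252548 to 106337965), varied widely within groups. It was at 1.92, 4.41 and 6.83 CPM in the WT-con livers and at 11.4, 3.67 and 2.16 CPM in the WT-EtOH livers. Values in the HKO-con livers were 10.6, 7.59 and 1.39 CPM and in the HKO-EtOH livers 4.22, 2.22 and 2.98 CPM. All groups overlapped, and no comparison passed. The log2 FC with the smallest adjusted *P* value was that of ethanol in HKO, -1.05 ± 0.63 (adjusted *P* = 0.239), which was -1.52 (adjusted *P* = 0.0153) without HKO-con liver 3.

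Across the 12 livers, which share groups and scaling, *Sptlc2* and *Cers6* had a Pearson's r of 0.848 between their log2 CPM. The pair *Cers2* and *Degs1* had the same r, and these were the highest positive values among pairs of the 10 genes. The largest r in absolute size was -0.852, for *Sptlc2* and *Degs1*, and *Sptlc2* and *Cers2* had -0.733. The genes most like *Sptlc2* over the 12 livers, among 11870 genes with a mean count of at least 50, were *Tnfrsf1a* (r = 0.983), *Nras* (0.974) and *Ptpn1* (0.973). Those most like *Cers6* were *Psmd1* (0.963), *Otud6b* (0.948) and *Pafah1b2* (0.948). Pearson's r does not measure the size of a change: their group means spanned 102 to 127, 23.8 to 32.2 and 19.3 to 27.6 CPM, against 12.7 to 74.6 CPM for *Cers6*. Those most like *Degs1* were *Carhsp1* (0.969), *Pomt1* (0.963) and *Fam210a* (0.962). For *Sgms1* they were *Prlr* (0.892), *Cyp2c68* (0.861) and *Man1a* (0.853).

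Markers of other liver cells moved with some of these results. The sum of 8 Kupffer cell markers was 390 to 503 CPM in WT-con, 353 to 872 CPM in WT-EtOH, 354 to 984 CPM in HKO-con and 219 to 276 CPM in HKO-EtOH livers. All 8 were called lower by ethanol in HKO, where 30.8% of all tested genes were called. None was called between the genotypes on the control diet, where 29.6% were. Over the 12 livers Pearson's r with this sum was 0.764 for *Cers5*, 0.539 for *Sptlc2*, 0.47 for *Cers4*, 0.452 for *Smpd3* and 0.222 for *Cers6*, and it was -0.492 for *Cers2*, -0.395 for *Degs1* and -0.155 for *Kdsr*. For *Sptlc1* and *Sgms1* it was 0.0942 and 0.0972. The interaction was called lower for 6 of the 8 Kupffer cell markers, with a median of -1.63, and it called 22.3% of all tested genes. The sum of 8 stellate cell markers was 263 to 331 CPM in WT-con and 368 to 425 CPM in WT-EtOH livers, which did not overlap. It was 255 to 274 CPM in HKO-con and 299 to 342 CPM in HKO-EtOH livers, also without overlap. By ethanol in WT, 3 of the 8 were called higher, with a median log2 FC of 0.439, against 9.47% of all tested genes called. By ethanol in HKO, 3 were called higher and 1 lower, with a median of 0.375. Ethanol in HKO lowered 2 of 8 markers of other leukocytes and 3 of 8 of sinusoidal endothelial cells, and raised none of these. Of all tested genes, 30.8% were called there. Of the 8 leukocyte markers, 2 were called higher by ethanol in WT and 4 lower by the interaction, with none the other way. The part of these cells in the changes of the 10 genes was not tested. In these bulk samples fewer cells of a type cannot be told apart from less RNA per cell.

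The other genes of sphingolipid metabolism were read from a list of 65 genes, of which 57 passed the filter. In WT, ethanol raised 7 and lowered 2 of the 57 (15.8%, against 9.47% of all tested genes), and the count of 9 was 5, 4 and 3 without WT-con liver 1, 2 and 3. Between the genotypes on the control diet 3 were higher and 14 lower in HKO, 29.8% of the 57 against 29.6% of all tested genes. Between the genotypes on ethanol 0 were called by edgeR, against 1.10% of all tested genes, and 19 had an unadjusted *P* value under 0.05. DESeq2 called 11, where it called 10.8% of all genes, limma on log2(FPKM + 1) called 3, where it called 2.72%, and edgeR without WT-EtOH liver 3 called 1. In HKO, ethanol raised 15 and lowered 5 (35.1%, against 30.8% of all tested genes), and the count of 20 was 12 without HKO-con liver 1 or HKO-EtOH liver 3. The interaction was called for 12 (21.1%, against 22.3% of all tested genes), of which 8 were positive, and for 7 without WT-con liver 2 or 3 and 6 without HKO-EtOH liver 3.

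**Figure D4:**
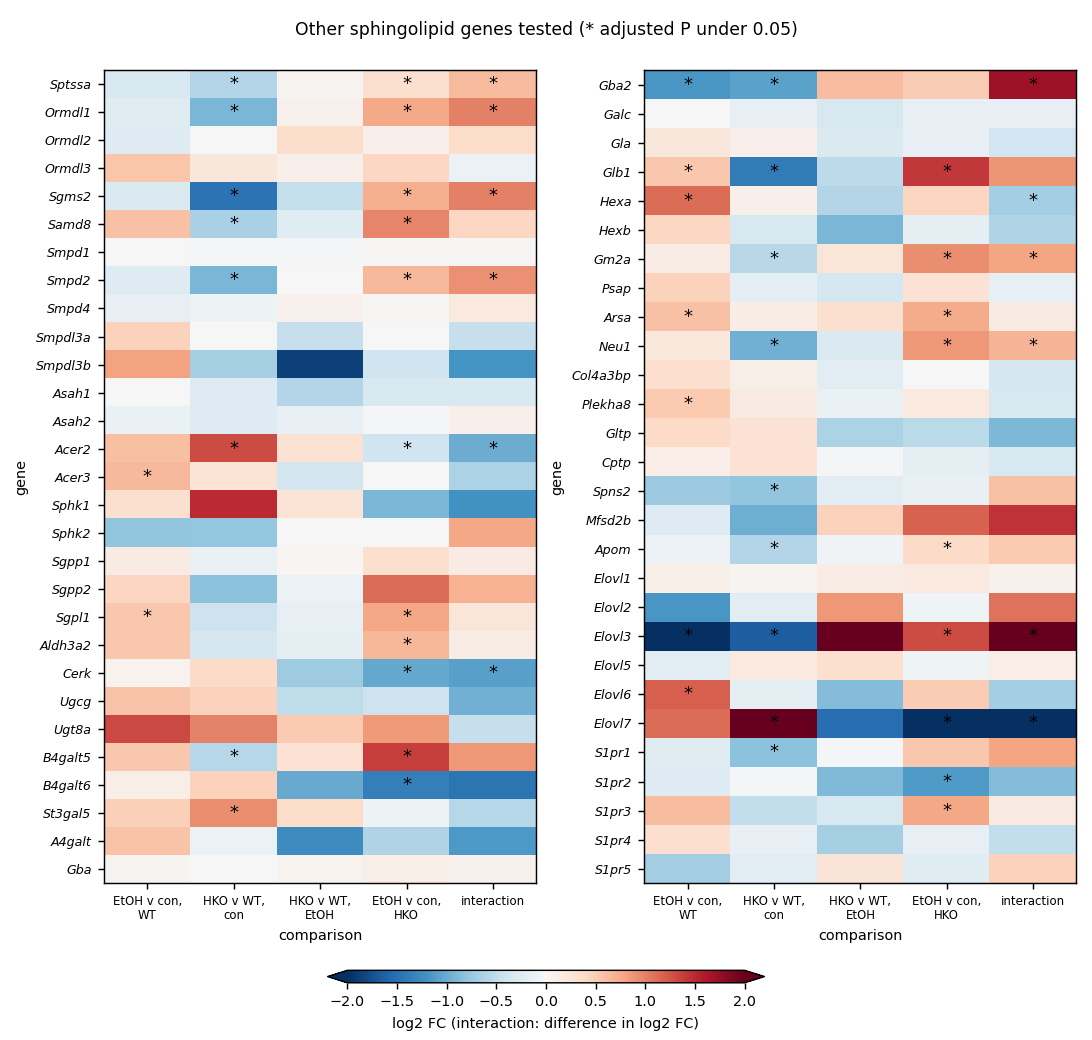
log2 FC (color; for the interaction the difference in log2 FC, with the color scale ending at 2 in either direction) of the 57 tested other sphingolipid genes (rows) in the 5 comparisons (columns); stars mark an adjusted *P* value under 0.05. On the control diet 14 of the 17 starred genes are lower in HKO than in WT.

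Among regulators of serine palmitoyltransferase, 2 of 4 tested genes were lower in HKO than in WT on the control diet, where 29.6% of all tested genes were called. These were *Ormdl1*, which encodes an inhibitor of the enzyme (log2 FC -0.92 ± 0.10, adjusted *P* = 0.00138), and *Sptssa*, which encodes a small activating subunit (-0.59 ± 0.09, adjusted *P* = 0.00439). Both were raised by ethanol in HKO, by 0.76 (adjusted *P* = 0.00609) and 0.32 (adjusted *P* = 0.0327) on the log2 scale, but the call of *Sptssa* was lost in all 6 fits with a liver removed (adjusted *P* of 0.0547 to 0.0957). Neither was called for ethanol in WT. *Ormdl1* was at 23.0, 20.4 and 24.1 CPM in the WT-con livers and at 11.4, 12.4 and 11.9 CPM in the HKO-con livers, which did not overlap. *Sptlc3* and *Sptssb* had at most 3 and 4 counts in a library and were not tested.

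Of 7 tested sphingomyelin synthases and sphingomyelinases, 3 were lower in HKO on the control diet and the same 3 genes were raised by ethanol in HKO: *Sgms2*, *Samd8* and *Smpd2*. Of all tested genes, 29.6% and 30.8% were called in these comparisons. The lower *Samd8* in HKO was kept in 1 of 6 fits with a liver removed, the fit without WT-con liver 3, and the rise of *Sgms2* by ethanol in 2 of 6, those without HKO-con liver 2 or 3. *Sgms2*, the sphingomyelin synthase of the plasma membrane, was at 67.3, 52.6 and 38.5 CPM in the WT-con livers and at 20.1, 24.2 and 12.3 CPM in the HKO-con livers, without overlap (log2 FC -1.48 ± 0.28, adjusted *P* = 0.00849). The *Sgms1* share of the summed FPKM of *Sgms1* and *Sgms2* was 24.3 ± 3.72% in WT-con, 43.9 ± 3.06% in WT-EtOH, 59.5 ± 19.3% in HKO-con and 37.6 ± 11.2% in HKO-EtOH livers (SD, n = 3). *Smpd1*, the acid sphingomyelinase, had group means of 43.7 to 45.1 CPM.

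Of 4 tested ceramidase genes, *Acer2*, a Golgi ceramidase, was higher in HKO than in WT on the control diet (log2 FC 1.30 ± 0.12, adjusted *P* = 0.00105) and lowered by ethanol in HKO (-0.40 ± 0.12, adjusted *P* = 0.0438), and *Acer3* rose with ethanol in WT (0.65 ± 0.13, adjusted *P* = 0.0247). With a liver removed, the fall of *Acer2* was kept only in the fit without HKO-con liver 2 and the rise of *Acer3* in none of 6 (adjusted *P* of 0.0529 to 0.08). The shares of all tested genes called were 29.6% between the genotypes on the control diet, 30.8% for ethanol in HKO and 9.47% in WT. Of 7 genes of sphingosine 1-phosphate and ceramide 1-phosphate, *Sgpl1*, the lyase that degrades sphingosine 1-phosphate, rose with ethanol in WT (0.54 ± 0.13, adjusted *P* = 0.0453) and in HKO (0.77 ± 0.20, adjusted *P* = 0.0279). Its call in WT was lost in all 6 fits with a liver removed (adjusted *P* of 0.06 to 0.13) and kept in 4 of 9 other settings, and its call in HKO was lost without HKO-con liver 1, 2 or 3 (up to 0.0707). In HKO ethanol also raised *Aldh3a2*, an aldehyde dehydrogenase that acts downstream of the lyase, and lowered *Cerk*, the ceramide kinase (-1.03 ± 0.24, adjusted *P* = 0.0173; lost without HKO-EtOH liver 2 or 3, up to 0.0604).

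Of 11 tested genes of glycosphingolipid breakdown, 4 were lower in HKO on the control diet, against 29.6% of all tested genes. *Glb1*, the lysosomal beta-galactosidase, was among them (log2 FC -1.40 ± 0.20, adjusted *P* = 0.00331) and rose with ethanol in WT (0.55 ± 0.12, adjusted *P* = 0.0385) and in HKO (1.42 ± 0.26, adjusted *P* = 0.00892). The rise of *Glb1* in WT was lost in all 6 fits with a liver removed (adjusted *P* of 0.0544 to 0.134) and kept in 4 of 9 other settings. *Gba2*, a non-lysosomal glucosylceramidase, was at 21.6, 18.0 and 22.3 CPM in the WT-con livers and at 8.34, 9.36 and 9.58 CPM in the WT-EtOH livers. The diets did not overlap (log2 FC -1.17 ± 0.12, adjusted *P* = 0.00369), and the interaction was 1.69 ± 0.24 (adjusted *P* = 0.0011). *Gba2* was also among the 4 genes lower in HKO on the control diet (-1.07 ± 0.13, adjusted *P* = 0.00193), at 9.59, 11.1 and 8.67 CPM in the HKO-con livers. *Hexa*, a subunit of lysosomal beta-hexosaminidase, rose with ethanol in WT (1.12 ± 0.13, adjusted *P* = 0.00497).

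Of 6 tested genes of glycosphingolipid synthesis, *St3gal5*, the GM3 synthase, was higher (log2 FC 0.93 ± 0.21, adjusted *P* = 0.0146) and *B4galt5*, a lactosylceramide synthase, lower (-0.56 ± 0.14, adjusted *P* = 0.0238) in HKO on the control diet. In HKO, ethanol raised *B4galt5* (1.38 ± 0.20, adjusted *P* = 0.00408) and lowered *B4galt6* (-1.36 ± 0.33, adjusted *P* = 0.02). Of all tested genes, 29.6% were called between the genotypes on the control diet, 30.8% for ethanol in HKO and 9.47% for ethanol in WT. With a liver removed, the call of *St3gal5* was lost without WT-con liver 1, that of the lower *B4galt5* without WT-con liver 2 or 3 or HKO-con liver 1 or 2, and that of *B4galt6* without HKO-con liver 1 or HKO-EtOH liver 1 or 3, with adjusted *P* values up to 0.0526, 0.0681 and 0.0588. Of 7 transport genes, *Apom*, the apolipoprotein that carries sphingosine 1-phosphate, and *Spns2*, a sphingosine 1-phosphate transporter, were lower in HKO on the control diet, by -0.59 ± 0.09 (adjusted *P* = 0.0045) and -0.80 ± 0.18 (adjusted *P* = 0.0157). *Plekha8*, which encodes a glycolipid transfer protein, rose with ethanol in WT (0.52 ± 0.09, adjusted *P* = 0.0177). The call of *Spns2* was lost without WT-con liver 3 (adjusted *P* = 0.0541) and that of *Plekha8* without WT-con liver 1, 2 or 3 (up to 0.0628). Among 5 receptors of sphingosine 1-phosphate, *S1pr1* was lower in HKO on the control diet (-0.82 ± 0.15, adjusted *P* = 0.00742), and ethanol in HKO lowered *S1pr2* (-1.13 ± 0.28, adjusted *P* = 0.0224) and raised *S1pr3* (0.77 ± 0.18, adjusted *P* = 0.0181). The call of *S1pr2* was lost without HKO-con liver 1 or 2 or HKO-EtOH liver 2 or 3 (up to 0.0696), and that of *S1pr3* without HKO-con liver 1 or HKO-EtOH liver 1 or 2 (up to 0.0555).

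Fatty acid elongases supply the acyl chains of ceramides, and 6 of 7 were tested. *Elovl3*, which elongates long saturated chains, was at 214, 235 and 192 CPM in the WT-con livers and at 6.51, 8.33 and 33.7 CPM in the WT-EtOH livers. Levels in the HKO-con livers were 67.8, 94.5 and 42.1 CPM and in the HKO-EtOH livers 143, 113 and 247 CPM. Ethanol lowered it in WT (log2 FC -3.71 ± 0.63, adjusted *P* = 0.0163) and raised it in HKO (1.30 ± 0.36, adjusted *P* = 0.033), and the interaction was 5.02 ± 0.80 (adjusted *P* = 0.00208). The fall in WT was lost without WT-con liver 1, 2 or 3 (adjusted *P* up to 0.0556) and kept in 9 of 9 other settings. The rise in HKO was lost without HKO-con liver 1 or 3 or HKO-EtOH liver 1 or 3 (up to 0.0978) and kept in 4 of 9 other settings. *Elovl6*, which elongates palmitate, rose with ethanol in WT (1.20 ± 0.16, adjusted *P* = 0.00846). Ethanol called 9.47% of all tested genes in WT and 30.8% in HKO, and the genotypes on the control diet 29.6%. *Elovl7* was low in every liver, at no more than 1.89 CPM, and was higher in HKO on the control diet (2.20 ± 0.54, adjusted *P* = 0.0215; lost without WT-con liver 2 or HKO-con liver 1 or 2, up to 0.0667) and lowered by ethanol in HKO (-2.62 ± 0.49, adjusted *P* = 0.00884).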

How the data were processed

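Livers were randomly selected, 3 per group, and RNA-seq libraries were stranded and made from polyadenylated RNA. The authors deposited read counts per gene, without normalization, and FPKM values, which are scaled to length and library size. The FPKM are not always the counts scaled by 1 fixed length. For *Kdsr*, HKO-con liver 2 had 1081 of 55962649 counts and 4.17 FPKM, and HKO-EtOH liver 1 had 1481 of 74336255 counts and 3.5 FPKM. TPM values were not used. The submitters' processing notes name the genome build mm10 and FastQC 0.11.7, Trimmomatic 0.38, HISAT2 2.1.0, Bowtie2 2.3.4.1 and StringTie 1.3.4d, without their roles, and the use of strand in counting is not given in the sources used here. Groups came from the sample titles. Nothing names a batch, and *P* values measure the spread between livers.

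Counts were filtered with filterByExpr of edgeR 4.0.16 (R 4.3.3), scaled by TMM and tested with the quasi-likelihood method, each pair of groups with its own 6 libraries and the interaction with all 12. The Benjamini-Hochberg adjustment covered the 14038 genes tested, and genes with an adjusted *P* value under 0.05 were called, with no minimum FC. CPM of single genes used TMM factors over the 12 libraries. Shares and levels per length used FPKM. Counts of 3, the floor taken as detectable, correspond to 0.0425 to 0.0676 CPM and cover counting error only. The scripts were tested on simulated data. Correlations used log2 CPM with a prior count of 2.

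Alternatives were DESeq2 1.42.0, upper-quartile scaling, no filter, at least 10 counts in every library, a single fit of all 12 libraries, the replicate number as a block, limma 3.58.1 on log2(FPKM + 1), quantile-normalized or not, and on quantile-normalized log2(FPKM + 0.1), the study's own thresholds of *P* value and FC, and leaving out each liver. Upstream sequences came from RefSeq (GRCm38.p6) and gene positions from its gene table. Named genes were all members, in each of 10 lists up to 3 called genes with the largest change, and the 3 genes most like each of 4 members. The members and lists were chosen with earlier results of these data known. *Smpd1*, *Cers1*, *Cers3*, *Sptlc3*, *Sptssb*, *Ahr*, *Cyp1a1* and *Cyp1a2* were named beside this rule.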

Additional observations from a re-analysis of the deposited data

Results flagged for a closer look

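For 5 of the 10 genes the effect of ethanol differed between WT and HKO livers by the interaction of genotype and diet (edgeR's quasi-likelihood test, adjusted over 14038 genes). Of all tested genes, 22.3% were called for the interaction. The difference in log2 FC, HKO minus WT, was -2.88 for *Cers6*, -1.92 for *Sptlc2*, -1.65 for *Sgms1* and -0.58 for *Sptlc1*, and it was 0.57 for *Degs1*. For *Cers6* ethanol raised the level in WT and lowered it in HKO. The interaction of *Sgms1* was called in 3 of 12 fits with a liver removed, and without HKO-con liver 3 it was -1.08.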

How the results depend on the processing

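The 17 called values of the 10 genes were computed under 280 alternatives: 0 reversed and 53 were no longer called. The members called for ethanol in WT, 4, numbered 2 with the replicate block, with limma on quantile-normalized log2(FPKM + 1) or log2(FPKM + 0.1) and with the study's thresholds, and 2 to 3 without each liver. Of all tested genes, the main fit called 9.47% there, the replicate block 3.68%, and the quantile-normalized limma fits 8.67% and 8.75%. For ethanol in HKO, 5 became 3 with the replicate block and both quantile-normalized limma fits, and 2 to 5 without each liver. There the shares of all tested genes were 30.8% in the main fit, 21.4% with the replicate block, and 29.6% and 30.1% with limma. DESeq2 called 5 between the genotypes on the control diet, where it called 34.6% of all tested genes. Between the genotypes on ethanol, limma on log2(FPKM + 1) with no quantile step called 1 member, *Sptlc1*, where it called 2.72%. Among other sphingolipid genes, ethanol in WT gave 17 with DESeq2, 14 with limma on log2(FPKM + 1) and 5 with the replicate block (3 to 10 without each liver). For this comparison DESeq2 called 16.6% of all tested genes, limma on log2(FPKM + 1) 13.4% and the replicate block 3.68%. The genotypes on ethanol gave 11 with DESeq2, 2 with all 12 libraries in a single fit, 1 with the replicate block, and 3 each with limma on log2(FPKM + 1) and the study's thresholds (0 to 1 without each liver). Of all tested genes, DESeq2 called 10.8% there, the single fit 4.1%, the replicate block 1.75% and limma on log2(FPKM + 1) 2.72%. Ethanol in HKO gave 13 with the replicate block, where 21.4% of all tested genes were called, and 12 to 18 without each liver. The interaction gave 6 to 13 without each liver. The replicate numbers come from the sample titles, and nothing in the sources used here links same-numbered livers across groups. Same-numbered livers did not deviate together (r of -0.088 to 0.178, with no comparison in which every pair was over 0.1), and the numbers were not taken as pairs. The replicate block thus fits a factor with no known meaning, which leaves fewer degrees of freedom. Without quantile normalization, limma on log2(FPKM + 1) moved the median log2 FC of all genes to -0.13 between the genotypes on ethanol.

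Reversals occurred among the 33 values that were not called, 17 in all. *Cers4* for ethanol in WT was 0.01 with the replicate block, 0.017 with limma on quantile-normalized log2(FPKM + 0.1) and 0.067 on log2(FPKM + 1), and -0.22 to 0.25 without each liver, and between the genotypes on the control diet it was -0.10 to 0.36 without each liver. *Cers5* was -0.28 to 0.43 for ethanol in WT and -0.74 to 0.010 between the genotypes on ethanol without each liver, and *Smpd3* was -0.60 to 0.85 and -1.25 to 0.10. *Degs1* for ethanol in WT was -0.014 in both quantile-normalized limma fits. Between the genotypes on ethanol it was -0.016 in both and -0.17 with limma on log2(FPKM + 1), and -0.051 to 0.11 without each liver. The interaction of *Cers2* was -0.020 with limma on log2(FPKM + 1). The cause of these changes was not tested. With 3 livers a group, the spread of *Smpd3*, *Cers5* and *Cers4* limits what could be called.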
